A study of Mus musculus with 6 samples.

Results

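The data described here are the transcript levels of 10 endothelial and angiogenic genes, chosen by symbol from the 55076 rows that each mouse's table held: Pecam1, Cdh5, Kdr, Flt1, Tek, Tie1, Vegfa, Angpt1, Angpt2 and Eng. All 10 symbols were found, each on 1 row. RNA of the entire anterior prostate (AP) was sequenced from male mice aged 20 weeks, 3 of them OEx and 3 Ctrl, with a library for each. OEx mice carried Pbsn-Cre, a Cre recombinase driven by the probasin promoter of prostate epithelium, together with a Rosa26 N1ICD allele that releases the intracellular domain of Notch1 (N1ICD) once Cre has acted. Ctrl mice carried the Rosa26 N1ICD allele without Cre, and the sample labels give their genotype as wild type. The Cre driver is thus epithelial, whereas 7 of the 10 genes are receptors or junction proteins of endothelial cells, and the RNA came from the whole lobe.

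Blood vessels are lined by endothelial cells, which are held together at their junctions by VE-cadherin (the product of Cdh5) and PECAM-1 (Pecam1). Vegfa, secreted by many cells including epithelium, acts on these cells through the receptors encoded by Kdr (VEGFR2, the main signalling receptor) and Flt1 (VEGFR1, which binds the ligand tightly and also exists as a soluble decoy). In the second system, Angpt1, made mainly by pericytes and other mesenchymal cells, activates the receptor Tek (Tie2) and steadies vessels, Angpt2, made mainly by endothelial cells, often acts against it, and Tie1 is a partner receptor of Tek without a firmly assigned ligand of its own. Eng (endoglin) is a co-receptor for BMP and TGF-beta ligands on endothelial cells.

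Values are FPKM as deposited, fragments per kilobase of gene divided by a scaling for each mouse. Levels of different genes within a mouse can thus be set side by side. Below 1000 reads, 96.9% to 97.5% of a library's values corresponded to whole reads, and the recovered depth was 14762182 to 18650962 reads on annotated genes per mouse. Genes were tested with limma on log2(FPKM + 1), which understates fold changes of low genes, over 12833 rows whose mean reached 1 FPKM. Genes counted as called at an FDR (Benjamini-Hochberg over all rows tested) under 0.05 and a fold change over 2. The deposited values carry a scaling between mice that differs from library totals. Relative to the recovered reads, the FPKM denominator was 1.22 to 1.35 in OEx mice and 0.726 to 0.815 in Ctrl mice. The deposited scaling thus puts OEx values lower against Ctrl values than library totals do. With FPKM scaled to library totals instead, the median over all rows tested moved on the log2 scale from -0.08 to 0.56. The top 20 genes by abundance held 27.3% to 34.1% of reads in Ctrl mice, against 7.29% to 9.02% in OEx mice. Notch1 was measured at 41.9, 47.6 and 78.9 FPKM in OEx mice and at 5.18, 5.55 and 3.34 FPKM in Ctrl mice, with a log2 fold change of 3.30 (SE 0.268).

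Replicate 3 of either group stood apart from the other mice of their group in genes of other cell types. Ctrl replicate 3 had a summed level of 14993 FPKM over 7 seminal vesicle genes, of which Svs5 held 10674 and Svs2 3837 FPKM, against sums of 0.578 to 3.99 FPKM in the other 5 mice, and had the highest sums for smooth muscle, red cell and endothelial genes. OEx replicate 3 had 25.1 FPKM over 6 fibroblast genes and 16.0 FPKM over 9 leukocyte genes, where the other OEx mice had 250 and 252 FPKM and 205 and 189 FPKM. Epithelial genes (Epcam, Cdh1, Krt8, Krt18 and Cldn7) summed to 1117, 1084 and 1396 FPKM in OEx mice and to 1837, 1764 and 1591 FPKM in Ctrl mice. Every OEx mouse thus lay below every Ctrl mouse in this sum, but the 5 genes were split. All OEx mice lay below all Ctrl mice for 3 of them and above for 2, against 38.9% and 33.4% of rows averaging 1 FPKM or more. Krt18 alone was at 292, 277 and 364 FPKM in OEx mice and 921, 880 and 808 FPKM in Ctrl mice. Values without Ctrl replicate 3 are given where they move a call, a direction or a size.

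**Figure D1:**
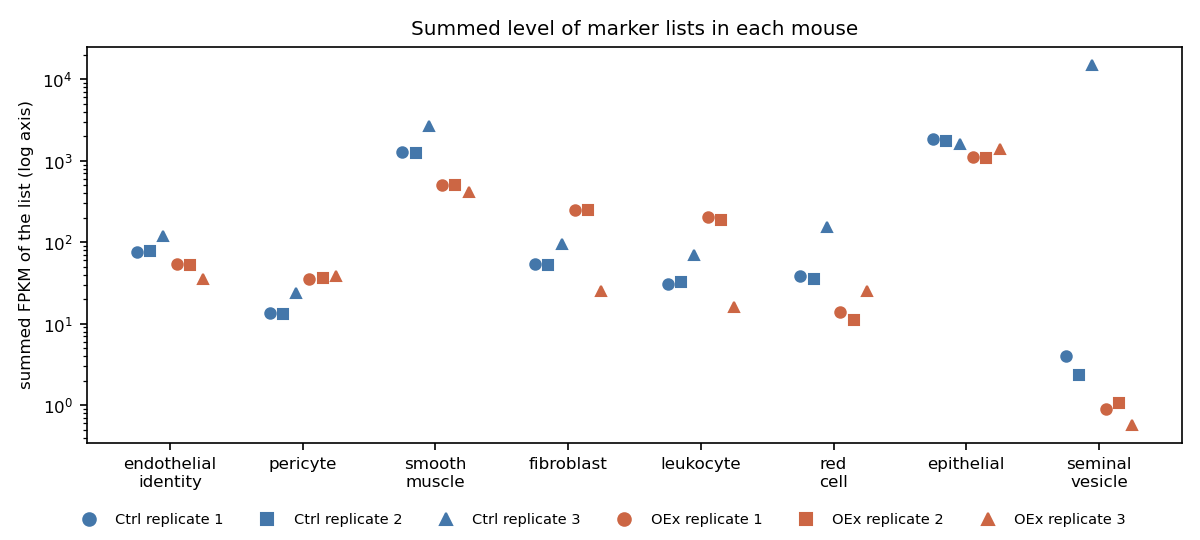
Summed FPKM (log axis) of 8 lists of marker genes in each mouse, with Ctrl mice in blue, OEx mice in orange and the replicate number shown by the marker. Ctrl replicate 3 reaches 14993 FPKM in seminal vesicle genes, and OEx replicate 3 lies lowest in fibroblast genes at 25.1 FPKM and in leukocyte genes at 16.0 FPKM.

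In the order of their levels, the 10 genes spread over more than an order of magnitude in both groups. Vegfa was highest in Ctrl mice (median 17.9 FPKM) and in OEx mice (median 13.5 FPKM), followed in both groups by Eng, Pecam1, Cdh5 and Tie1. Pecam1 and Cdh5 overlapped in range within each group, as did Vegfa and Eng in Ctrl mice. Below Tie1 the order differed between the groups. Among Ctrl mice it ran Kdr, Angpt2, Flt1, Tek and Angpt1, and the ranges of neighbours overlapped down to Tek. Among OEx mice it ran Tek, Kdr, Angpt1, Flt1 and Angpt2, and the ranges of neighbours overlapped down to Flt1. Angpt1 was lowest in Ctrl mice, with a median of 0.0759 FPKM, and Angpt2 was lowest in OEx mice, with a median of 0.270 FPKM.

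Of the 10 genes, 7 were lower in all OEx mice than in any Ctrl mouse (Pecam1, Cdh5, Kdr, Flt1, Tie1, Angpt2 and Eng), 1 was higher (Angpt1), and 2 overlapped (Tek and Vegfa). Over the rows with a mean of 1 FPKM or more, OEx mice lay below all Ctrl mice for 38.9% and above for 33.4%, and over all 28612 rows above 0 in any mouse for 21% and 27.2%. In the fit of log2(FPKM + 1), 7 genes passed the filter, and 0 were called higher and 0 lower, where 12.9% of all rows tested were called higher and 15.7% lower. An unadjusted limma p under 0.05 was found for 4 of the 7, all lower, where 38.1% of all rows were lower and 32.4% higher at that threshold. These 4 (Pecam1, Cdh5, Tie1 and Eng) also had an FDR under 0.05, as had 36.5% of rows lower and 30.7% higher, with less than the 2-fold change required for a call. The median log2 fold change of the 7 was -0.47, which is -0.39 relative to that of all rows tested, and with library totals it was 0.10, or -0.46 relative to all rows. Flt1, Angpt1 and Angpt2 had means under 1 FPKM and were tested in an added limma-voom fit of recovered reads over rows that averaged 10 reads or more, chosen after their values were seen. In that fit all 10 were tested, and 1 was called higher (Angpt1) and 4 lower (Pecam1, Cdh5, Tie1 and Angpt2), against 21.6% and 17.4% of the 15596 rows tested. The same 5 were called without each mouse in turn, where 2968 to 3775 rows were called higher and 2504 to 2717 lower. With library totals in that fit, 1 was called higher (Angpt1) and 1 lower (Angpt2), where 41.3% and 5.1% of rows were. Pecam1, Cdh5 and Tie1 were also called lower with a pseudocount of 0.1 FPKM, as were 19.2% of rows, and with limma-voom over the rows of the FPKM filter, which called 20.3% of rows higher and 16.2% lower. On the FPKM scale with library totals, 0 of the 7 tested were called in either direction (30.6% of rows higher, 4.59% lower), and without a filter on the mean 0 of 10 were (6.27% higher, 7.12% lower). In bulk tissue, fewer endothelial cells and less RNA per cell cannot be told apart.

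**Figure D2:**
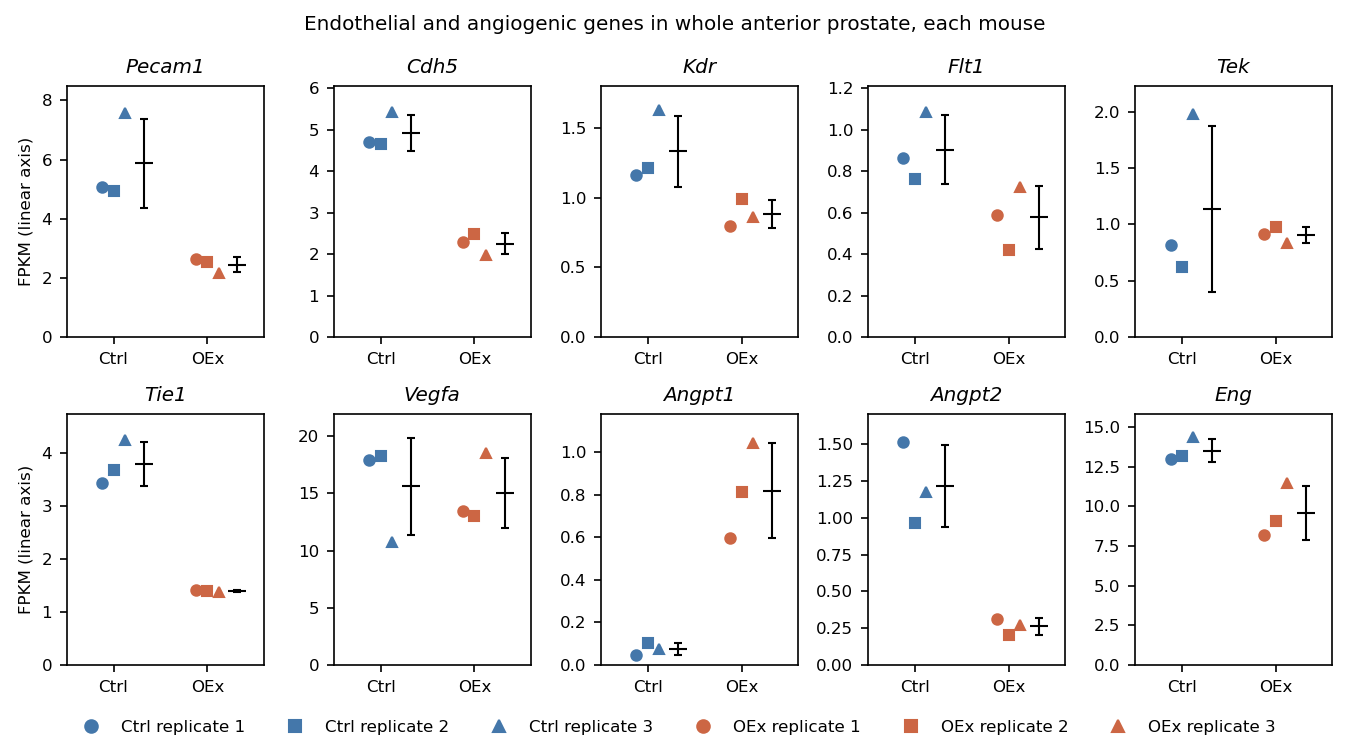
FPKM (linear axes from 0, each gene on its own scale) of the 10 genes in each Ctrl mouse (blue) and OEx mouse (orange); the black line with bars beside the points is the mean ± SD of 3 mice. Groups do not overlap for 8 genes, with Angpt1 the one that is higher in OEx mice, while Tek and Vegfa overlap.

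Promoter windows were read for the receptors, since their transcripts did not move alike: Tie1 was lower in OEx mice and Tek overlapped between the groups. The RefSeq table of promoters (GRCm38.p6) matched 6 of the 10 genes: Kdr, Flt1, Tek, Tie1, Vegfa and Eng. Pecam1, Cdh5, Angpt1 and Angpt2 are named only. Printed are up to 250 bases before the RefSeq start, 5′ to 3′ on the strand of the gene, without bases that lie inside the annotated gene. Capitals mark motifs on either strand: TGGGAA (the core bound by Rbpj, the DNA-binding partner of N1ICD), ACGTG and GCGTG (cores of hypoxia response elements), and CGGAAG and AGGAAG (bound by Ets factors).
Tie1, chr4:118490062-118490099, minus strand: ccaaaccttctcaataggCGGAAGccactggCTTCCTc
Tek, chr4:94739039-94739288, plus strand: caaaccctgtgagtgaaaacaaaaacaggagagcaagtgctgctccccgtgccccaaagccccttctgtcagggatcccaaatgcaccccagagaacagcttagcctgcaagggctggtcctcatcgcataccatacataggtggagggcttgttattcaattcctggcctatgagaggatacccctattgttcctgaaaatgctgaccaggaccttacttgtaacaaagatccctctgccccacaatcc
Kdr, chr5:75978459-75978705, minus strand: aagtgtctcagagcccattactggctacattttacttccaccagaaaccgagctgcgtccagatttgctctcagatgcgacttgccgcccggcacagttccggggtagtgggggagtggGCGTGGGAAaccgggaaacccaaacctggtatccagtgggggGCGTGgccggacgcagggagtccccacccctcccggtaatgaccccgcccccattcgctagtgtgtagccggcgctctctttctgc
Flt1, chr5:147726012-147726261, minus strand: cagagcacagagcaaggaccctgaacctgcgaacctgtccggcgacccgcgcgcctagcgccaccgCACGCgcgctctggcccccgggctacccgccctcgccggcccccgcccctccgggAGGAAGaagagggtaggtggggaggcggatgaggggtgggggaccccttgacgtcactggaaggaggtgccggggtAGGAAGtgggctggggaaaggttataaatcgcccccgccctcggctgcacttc
Eng, chr2:32646345-32646594, plus strand: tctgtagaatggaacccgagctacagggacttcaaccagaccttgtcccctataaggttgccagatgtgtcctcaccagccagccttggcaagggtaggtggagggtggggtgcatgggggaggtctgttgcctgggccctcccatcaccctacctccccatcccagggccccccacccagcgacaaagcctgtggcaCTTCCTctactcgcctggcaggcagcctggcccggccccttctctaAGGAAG
Counted from the RefSeq start, the window of Tie1 held CGGAAG at -232, AGGAAG on the opposite strand at -219 and, in the 212 bases that lie inside the annotated gene and are not printed, TGGGAA on the opposite strand at -16. That of Tek held none of these motifs. In the window of Kdr, TGGGAA at -128 overlapped GCGTG at -131, and a second GCGTG lay at -89. TGGGAA was found in the windows of 3 of the 6 genes (Kdr, Tie1 and Vegfa), against 24.1% of the 27025 genes in the table with at least 1 such window of 250 bases. AGGAAG was found in 3 (Flt1, Tie1 and Eng) against 32.3%, GCGTG in 3 (Kdr, Flt1 and Vegfa) against 30.9%, CGGAAG in 1 (Tie1) against 15.3%, and ACGTG in 1 (Vegfa) against 18.5%. Over the 32851 single windows the shares were 21.6% for TGGGAA, 29.5% for AGGAAG, 28.2% for GCGTG, 13.6% for CGGAAG and 16.6% for ACGTG. Vegfa has 2 windows: the first holds TGGGAA alone, and the second, which lies wholly inside the annotated gene, holds TGGGAA and its ACGTG and GCGTG. A match is a description of these letters and not of binding.

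The junction genes were both lower in OEx mice, each by more than the spread between mice. Pecam1, on chromosome 11 from 106654217 to 106750628 (GRCm38), was measured at 2.66, 2.56 and 2.15 FPKM in OEx mice and at 5.08, 4.94 and 7.59 FPKM in Ctrl mice. Every OEx mouse lay below every Ctrl mouse, and Ctrl replicate 3 was the highest. The means were 2.45 ± 0.266 and 5.87 ± 1.49 FPKM (SD, n = 3 each), 2.39-fold higher in Ctrl mice. Its log2 fold change was -0.97 (SE 0.165, limma FDR 0.00201), and without Ctrl replicate 3 it was -0.80 (FDR 0.00134). Pecam1 is also made by leukocytes and platelets. The 9 leukocyte genes summed to 205, 189 and 16.0 FPKM in OEx mice and to 30.6, 32.2 and 70.6 FPKM in Ctrl mice, and the platelet genes to 5.59, 5.43 and 0.992 FPKM and to 2.27, 2.17 and 9.16 FPKM. In OEx mice Pecam1 and both sums were highest in replicate 1 and lowest in replicate 3, and in Ctrl mice all were highest in replicate 3. Their part in the level of Pecam1 was not tested.

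Cdh5, which is confined to endothelium more strictly, lies on chromosome 8 from 104101625 to 104144511. It stood at 2.29, 2.50 and 1.98 FPKM in OEx mice and at 4.70, 4.65 and 5.43 FPKM in Ctrl mice. The groups were apart and each was tight, with means of 2.25 ± 0.262 and 4.93 ± 0.439 FPKM (SD, n = 3 each). The log2 fold change was -0.87 (SE 0.108, limma FDR 5.28e-04). In the fit of recovered reads, Pecam1 was at -1.23 (SE 0.200) and Cdh5 at -1.12 (SE 0.147), both called lower. With library totals, both stayed below 0 but lost the FDR threshold, at -0.36 for Pecam1 (FDR 0.151) and -0.27 for Cdh5 (FDR 0.127). The ratio of Pecam1 to Cdh5 within a mouse, which does not depend on scaling between mice, was 1.16, 1.02 and 1.09 in OEx mice and 1.08, 1.06 and 1.40 in Ctrl mice. These ratios overlapped, and their log2 values differed by -0.10 (SE 0.138, exact permutation p = 0.7, two-sided), or by 0.02 without Ctrl replicate 3.

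The VEGF receptors were both lower in OEx mice than in Ctrl mice, by smaller amounts than the junction genes. Kdr (chromosome 5, from 75932827 to 75978458) was measured at 0.794, 0.993 and 0.865 FPKM in OEx mice and at 1.16, 1.21 and 1.63 FPKM in Ctrl mice. The groups did not overlap, and the mean was 1.51-fold higher in Ctrl mice. Its log2 fold change of -0.30 (95% interval -0.62 to 0.01) missed the FDR threshold at 0.0810, and without Ctrl replicate 3 it was -0.22 (FDR 0.157). The fit of recovered reads gave -0.59 (SE 0.191, FDR 0.0293), with an FDR of 0.103 without OEx replicate 1, 0.0683 without Ctrl replicate 3 and 0.0547 with the replicate number as a block. Flt1, also on chromosome 5 from 147561604 to 147726011, was at 0.590, 0.418 and 0.722 FPKM in OEx mice and at 0.864, 0.761 and 1.09 FPKM in Ctrl mice. The highest OEx mouse lay just under the lowest Ctrl mouse. In the fit of recovered reads its log2 fold change was -0.71 (SE 0.246, FDR 0.0379), and without single mice in turn the FDR ranged from 0.0136 to 0.134. With library totals, Kdr and Flt1 turned to values above 0, at 0.10 (FDR 0.558) and, in recovered reads, at 0.09 (FDR 0.758). The Kdr to Flt1 ratio was 1.34, 2.38 and 1.20 in OEx mice and 1.342, 1.597 and 1.495 in Ctrl mice, a difference of 0.09 in log2 (SE 0.314, exact permutation p = 0.9) that was -0.22 without OEx replicate 2.

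Their ligand Vegfa, on chromosome 17 from 46016993 to 46032369, showed no difference beyond the spread between mice. It was at 13.5, 13.1 and 18.5 FPKM in OEx mice and at 17.9, 18.3 and 10.8 FPKM in Ctrl mice. The third replicate of each group ran against the other mice of its group, so the groups overlapped. The log2 fold change was -0.04 with a 95% interval from -0.58 to 0.51 (limma FDR 0.896), and without Ctrl replicate 3 it was -0.27 (FDR 0.182). With library totals it was 0.70 (FDR 0.0124), above 0 and within the fold threshold.

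Of 10 further genes of the VEGF and angiopoietin pathway, 6 were tested, 0 were called higher and 1 was called lower. For this list and those below, the shares over all rows tested were 12.9% higher and 15.7% lower. With library totals they were 30.6% and 4.59%, and in the fit of recovered reads 21.6% and 17.4%. That was Vegfb, a ligand of Flt1, at 16.5, 16.0 and 21.4 FPKM in OEx mice and 55.1, 49.0 and 51.9 FPKM in Ctrl mice, with a log2 fold change of -1.49 (SE 0.126). With library totals Vegfb was at -0.73 and was not called. The median of the 6 was -0.26, or -0.19 relative to all rows tested. Without Ctrl replicate 3 it was -0.07, or 0.02 relative to all rows, and with library totals 0.22, or -0.33.

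Both angiopoietins differed strongly and in opposite directions. Angpt1 (chromosome 15, from 42424723 to 42676977) was measured at 0.597, 0.815 and 1.04 FPKM in OEx mice and at 0.0461, 0.104 and 0.0759 FPKM in Ctrl mice. Behind these values stood 62, 97 and 98 reads in OEx mice against 3, 7 and 6 in Ctrl mice. All OEx mice were far above all Ctrl mice, and the Ctrl level was near 3 reads, a floor that was set here and not measured. Over the summed reads, 257 against 16, the ratio was 10.7 with an exact 95% interval of 6.48 to 19.1 that covers counting error only. The log2 fold change in the fit of recovered reads was 3.33 (SE 0.531, FDR 0.00122). It remained called with library totals, at 4.13, and without each mouse in turn, at 3.05 to 3.55. Angpt1 passed the filter of 10 reads only through OEx mice. These repeats share that filter and are not independent support for the call. On the log2(FPKM + 1) scale with no filter on the mean, the difference was 0.75 (FDR 0.00266) and did not pass the fold threshold.

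Angpt2 (chromosome 8, from 18690263 to 18741562) ran the other way, at 0.312, 0.201 and 0.270 FPKM in OEx mice and 1.52, 0.963 and 1.18 FPKM in Ctrl mice. These are 23, 17 and 18 reads in OEx mice against 70, 46 and 66 in Ctrl mice. The groups did not overlap, and the means were 4.66-fold higher in Ctrl mice. Its log2 fold change in the fit of recovered reads was -2.20 (SE 0.334, FDR 9.70e-04), with values of -2.37 to -2.0 when each mouse was left out, all called. With library totals it was -1.42 (FDR 0.00729) and was also called. On the log2(FPKM + 1) scale with no filter, it was -0.81 (FDR 0.00402), short of the fold threshold. Angpt2 lies within Mcph1 on the opposite strand but shares no exon base with it, and Mcph1 was at 1.28 to 1.58 FPKM in OEx mice and 1.10 to 1.46 FPKM in Ctrl mice. The exons of Angpt1 share 737 bases with the antisense transcript Gm17473, which was listed at 0 in 5 mice and at 0.0545 FPKM in OEx replicate 3. Whether reads were counted by strand is not given in the sources used here.

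Set against each other within a mouse, Angpt2 exceeded Angpt1 in all Ctrl mice and fell short of it in all OEx mice. The ratio of Angpt2 to Angpt1 was 32.9, 9.27 and 15.5 in Ctrl mice and 0.523, 0.247 and 0.259 in OEx mice. On the log2 scale the ratio was 4.07 ± 0.919 in Ctrl mice and -1.63 ± 0.606 in OEx mice (SD, n = 3 each), a difference of -5.70 (SE 0.636). With 3 against 3 mice an exact permutation test cannot give a two-sided p below 0.1, which was the value found here (0.2 after adjustment over the 4 ratios computed). The ratio does not change with the scaling between mice.

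**Figure D3:**
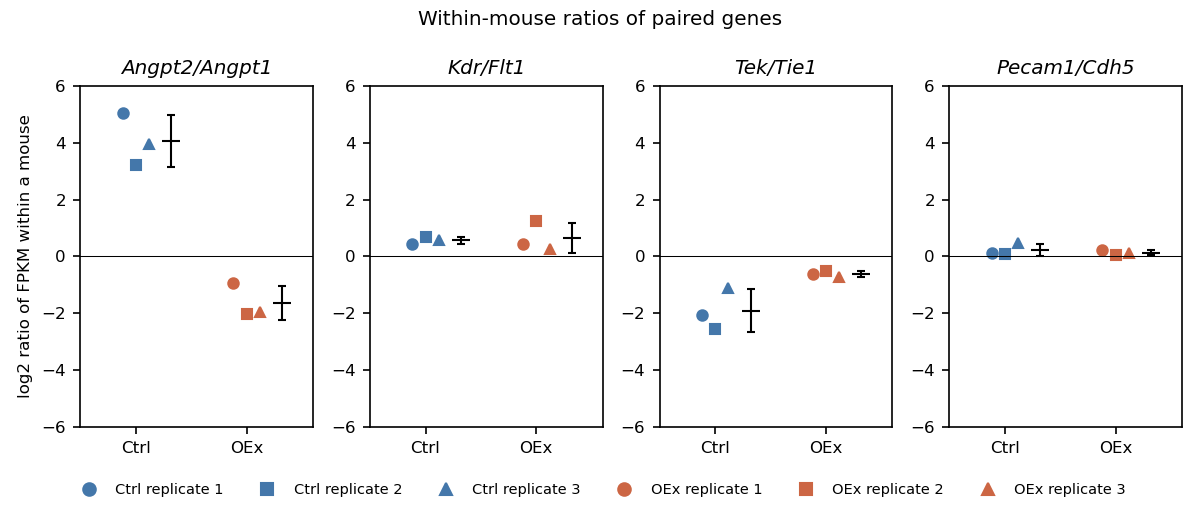
Within-mouse log2 ratios of FPKM for 4 pairs of genes, Ctrl mice in blue and OEx mice in orange, with the mean ± SD of 3 mice in black. Angpt2 to Angpt1 crosses 0 between the groups, Tek to Tie1 is apart, and the other two ratios overlap.

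The receptors of this system differed from each other. Tie1 (chromosome 4, from 118471191 to 118490061) was at 1.42, 1.39 and 1.37 FPKM in OEx mice and at 3.43, 3.68 and 4.24 FPKM in Ctrl mice. It had the tightest OEx values of the 10 genes (SD 0.0218 FPKM), and the mean was 2.72-fold higher in Ctrl mice. The log2 fold change was -0.996 (SE 0.105, limma FDR 2.58e-04), just short of the fold threshold, and -1.44 in the fit of recovered reads (SE 0.151), where it was called. With library totals Tie1 was at -0.46 (FDR 0.0145).

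Tek, on the same chromosome from 94739289 to 94874976, was at 0.915, 0.974 and 0.835 FPKM in OEx mice and at 0.814, 0.623 and 1.98 FPKM in Ctrl mice. Ctrl replicate 3 alone was above the OEx mice, and the other Ctrl mice were below them. Only Ctrl replicate 3 exceeded 1 FPKM, so Tek passed the filter through that mouse alone. The log2 fold change was -0.11 (95% interval -0.69 to 0.46, limma FDR 0.694), and without Ctrl replicate 3 it turned to 0.15 (FDR 0.326). The Tek to Tie1 ratio was 0.646, 0.702 and 0.607 in OEx mice and 0.237, 0.169 and 0.467 in Ctrl mice, higher in every OEx mouse. The log2 difference was 1.29 (SE 0.435), or 1.70 without Ctrl replicate 3 and 0.97 without Ctrl replicate 2. The exact permutation p was 0.1, again the smallest the design allows (0.2 after adjustment over the 4 ratios).

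Eng (chromosome 2, from 32646595 to 32682669) was at 8.21, 9.07 and 11.5 FPKM in OEx mice and at 13.0, 13.2 and 14.4 FPKM in Ctrl mice. The groups did not overlap, and the mean was 1.41-fold higher in Ctrl mice. The log2 fold change was -0.47 (SE 0.128, limma FDR 0.0162), and with library totals it turned to 0.25 (FDR 0.104). The FDR was 0.0553 without OEx replicate 1 and 0.0570 without OEx replicate 2. With upper-quartile scaling the log2 fold change was -0.21 (FDR 0.159), and with totals lacking the top 20 genes -0.15 (FDR 0.248). Eng shares 61 exon bases with Fpgs on the opposite strand, which was at 27.3 to 32.2 FPKM in OEx mice and 34.6 to 47.1 FPKM in Ctrl mice, and the part of Fpgs in the values of Eng was not tested.

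**Figure D4:**
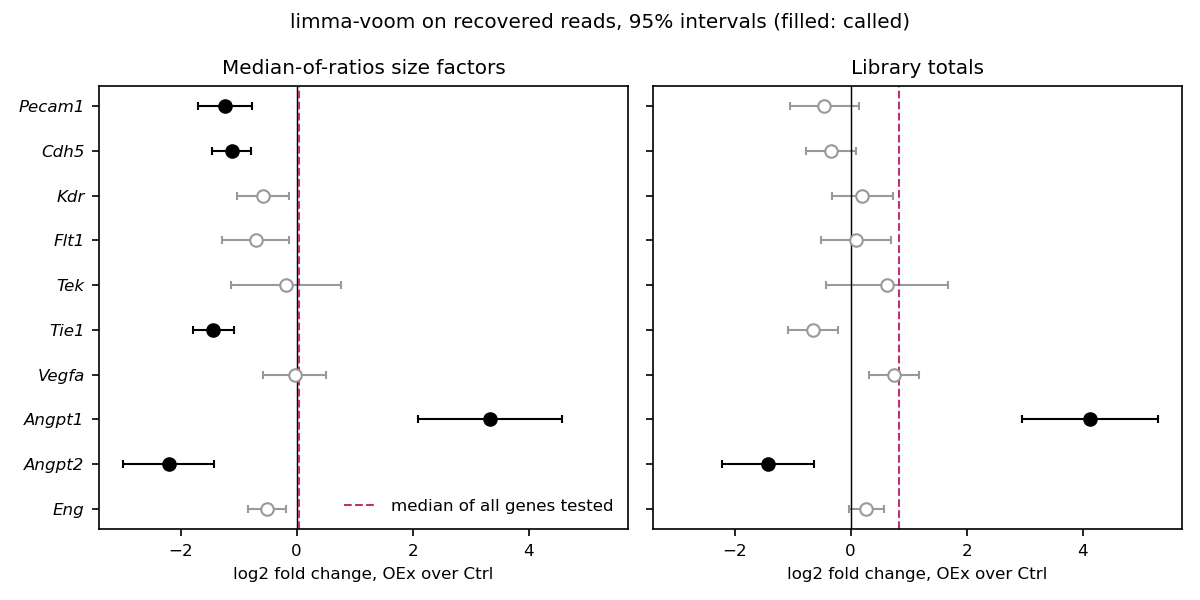
Log2 fold changes of the 10 genes in OEx over Ctrl mice from limma-voom on recovered reads with 95% intervals, with median-of-ratios size factors at left and library totals at right; filled points were called, and the dashed line is the median of all rows tested (0.05 at left and 0.83 at right). Angpt1 and Angpt2 are called in both panels, and Pecam1, Cdh5 and Tie1 only at left.

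Of 9 genes around endoglin and BMP signalling, 7 were tested, 0 were called higher and 3 lower. These were Smad9, a receptor-activated Smad, with a log2 fold change of -1.76 (SE 0.181), Id3, a BMP target made in many cell types, with -1.64 (SE 0.167), and Acvrl1 (ALK1, the type I receptor that pairs with endoglin), with -1.04 (SE 0.324). Acvrl1 was at 3.11, 2.96 and 1.12 FPKM in OEx mice and 4.93, 4.31 and 8.44 FPKM in Ctrl mice, so replicate 3 of each group set the extreme on its side. Without Ctrl replicate 3, 2 of the 7 were called lower. The median of the 7 was -0.30, or -0.22 relative to all rows. With library totals the median was 0.41, or -0.14, and 2 were called higher and 1 lower (30.6% and 4.59% of all rows).

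Of 32 further genes of endothelial identity, 18 were tested, 6 were called lower and 0 higher, with a median log2 fold change of -0.72, or -0.64 relative to all rows tested. Emcn (endomucin, a surface sialomucin of capillary and venous endothelium) was at 0.890, 0.639 and 0.686 FPKM in OEx mice and 5.72, 6.05 and 6.44 FPKM in Ctrl mice, with a log2 fold change of -2.03 (SE 0.106). Cldn5, the endothelial tight junction claudin, was at -1.66 (SE 0.304), Ramp2, the co-receptor for adrenomedullin, at -1.56 (SE 0.224), and Plvap, of the diaphragms of fenestrated capillaries, at -1.53 (SE 0.176). Over the 32 genes, 18 were lower in all OEx mice and 3 were higher, against 21% and 27.2% of all rows above 0 in any mouse. Their summed level was 54.2, 51.9 and 35.8 FPKM in OEx mice and 75.1, 77.1 and 121 FPKM in Ctrl mice. Without Ctrl replicate 3, 5 were called lower and the median was -0.47, or -0.38 relative to all rows. In the fit of recovered reads, 11 of 31 tested were called lower and 0 higher (17.4% and 21.6% of all rows). With library totals 3 were called lower (Emcn, Cldn5 and Ramp2) and 1 higher (Esam, an endothelial adhesion molecule), and the median was -0.25. Of all rows, 4.59% were called lower and 30.6% higher with library totals. The list was not uniform, with 15 of the 18 below 0. Esam was at 9.98, 9.62 and 9.37 FPKM in OEx mice and at 4.04, 4.90 and 7.37 FPKM in Ctrl mice, with a log2 fold change of 0.76 (SE 0.185). Esam was the tested gene of the list furthest above 0, and was named after its values were seen.

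Genes of endothelial Notch signalling and arteriovenous fate, some of which epithelium also expresses, numbered 8 tested of 11, of which 3 were called higher and 1 lower. The 3 were Nrarp, a Notch target and feedback inhibitor (log2 fold change 2.71, SE 0.268), Nr2f2, a transcription factor of venous endothelium and of stroma (1.45, SE 0.122), and Hey1, a Notch target (1.20, SE 0.213). Unc5b, a guidance receptor, was called lower at -2.17 (SE 0.144). Their median was 0.29, or 0.37 relative to all rows. In the fit of recovered reads all 11 were tested, 4 were called higher and 3 lower, and the median turned to -0.12, or -0.17 relative to all rows. With library totals 4 of the 8 were called higher and 1 lower (30.6% and 4.59% of all rows).

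Among other angiogenic ligands, 5 of 6 genes were tested, 1 was called higher and 2 lower. Fgf2, a growth factor for endothelium and fibroblasts, was at 1.03 (SE 0.279), Ang (angiogenin, a secreted ribonuclease) at -2.85 (SE 0.137) and Adm (adrenomedullin, a ligand of the receptor that contains Ramp2) at -2.04 (SE 0.333). Fgf2 was at 3.19, 2.91 and 1.23 FPKM in OEx mice and 0.448, 0.444 and 1.04 FPKM in Ctrl mice, so replicate 3 of each group lay nearest to the other group. Their median was -0.58, or -0.50 relative to all rows. With library totals 2 were called higher and 2 lower (30.6% and 4.59% of all rows). Of 8 angiogenesis inhibitors, 5 were tested, 0 were called higher and 1 lower, which was Col18a1, the source of endostatin, at -1.88 (SE 0.0964). Their median was 0.05, or 0.13 relative to all rows.

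Of 14 genes of the hypoxia response, which includes Vegfa regulators and targets of Hif1a, 12 were tested, 1 was called higher and 5 lower. Hif1a, the oxygen-regulated factor itself, was called higher at 1.33 (SE 0.153). Ldha (lactate dehydrogenase A) was called lower at -2.60 (SE 0.136), Ndrg1 at -1.89 (SE 0.101) and Bnip3, a mitophagy receptor, at -1.84 (SE 0.0940). The median of the 12 was -0.94, or -0.86 relative to all rows, whereas Vegfa was at -0.04. In the fit of recovered reads 8 of 14 were called lower (17.4% of all rows). With library totals 3 of the 12 were called higher (30.6% of all rows) and 3 lower (4.59%).

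Markers of the cells that surround vessels moved unevenly. All 6 smooth muscle genes were called lower, with a median of -1.66, or -1.59 relative to all rows, and 4 of them without Ctrl replicate 3. Their summed level was 505, 501 and 419 FPKM in OEx mice and 1277, 1252 and 2671 FPKM in Ctrl mice. The largest were Cnn1 (-2.41), Acta2 (-1.84), Actg2 (-1.74) and Tagln (-1.59), genes of the contractile apparatus. With library totals, Cnn1 and Acta2 alone among them were called lower. Of 8 pericyte genes, 6 were tested, 1 was called higher (Notch3, log2 fold change 3.30, SE 0.204) and 0 lower, with a median of -0.03, or 0.05 relative to all rows. Without Ctrl replicate 3 the median was 0.20 and the number called higher was 2. In the fit of recovered reads the median was -0.22, and with library totals 2 were called higher (30.6% of all rows). The summed pericyte level was 35.6, 36.2 and 38.3 FPKM in OEx mice and 13.5, 13.1 and 23.7 FPKM in Ctrl mice, of which Notch3 alone was 16.2, 17.8 and 28.3 FPKM in OEx mice and 1.14, 1.02 and 1.28 FPKM in Ctrl mice.

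For fibroblast genes, 0 of 6 were called in either direction, with a median of 1.08. For leukocyte genes, 0 of the 4 tested of 9 were called, with a median of 0.94. With library totals 2 leukocyte genes were called higher (30.6% of all rows). In the fit of recovered reads 1 of 7 was (21.6% of all rows), with a median of 1.59. The fibroblast sum was 250, 252 and 25.1 FPKM in OEx mice and 54.4, 53.1 and 94.7 FPKM in Ctrl mice, so OEx replicate 3 lay below all Ctrl mice. The collagens Col1a1 and Col3a1 were at 1.29 (SE 0.936) and 1.57 (SE 1.11), and Lyz2 (lysozyme) and Csf1r (the CSF1 receptor of macrophages) at 0.97 (SE 1.15) and 0.91 (SE 0.449). Angpt1 was highest in OEx replicate 3, with 98 reads against 97 in OEx replicate 2. OEx replicate 3 had the lowest fibroblast and leukocyte sums. Its pericyte sum was the highest at 38.3 FPKM, of which Notch3 held 28.3 FPKM. A link of Angpt1 to these sums was not tested. Red cell genes, a sign of blood left in the tissue, were called lower for 4 of 5 tested, with sums of 14.0, 11.0 and 25.4 FPKM in OEx mice and 38.8, 35.8 and 155 FPKM in Ctrl mice, for 3 without Ctrl replicate 3 and for 0 with library totals. The globin genes Hbb-bt (-2.04), Hba-a2 (-1.85), Hba-a1 (-1.78) and Hbb-bs (-1.70) include near-identical copies, so the split of reads between them is uncertain. Without Ctrl replicate 3 the median of the 5 moved from -1.78 to -1.09. The part of these cell types in the levels of the 10 genes was not tested. Platelet and lymphatic endothelial genes gave 0 calls among 1 and 2 tested: Pf4 (platelet factor 4) was at -0.19 (SE 0.742), or 0.39 without Ctrl replicate 3, and Pdpn and Lyve1, of lymphatic endothelium, were at -0.69 (SE 0.557) and 0.18 (SE 0.414). Itga2b, a platelet integrin under the filter, was at 0.643, 0.706 and 0.762 FPKM in OEx mice and 0.308, 0.425 and 0.784 FPKM in Ctrl mice. Of 5 epithelial genes 1 was called lower (Krt18, -1.49, SE 0.132), while with library totals 2 were called higher and 0 lower (30.6% and 4.59% of all rows).

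**Figure D5:**
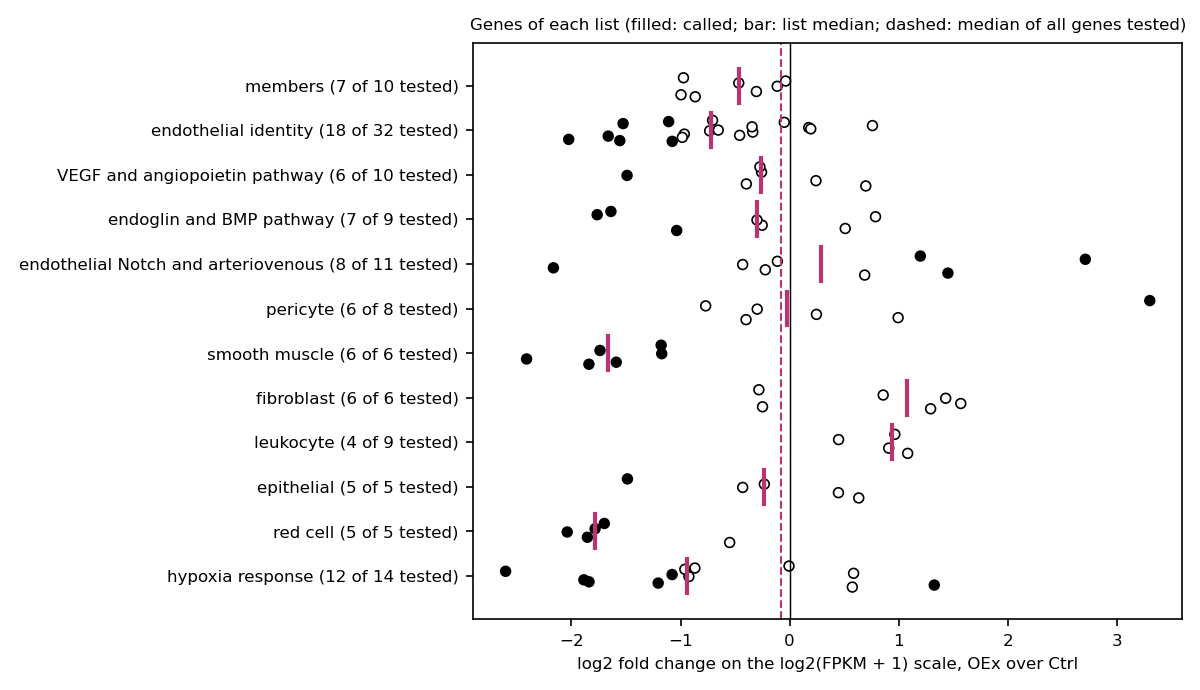
Log2 fold changes on the log2(FPKM + 1) scale (x axis) of the tested genes of 12 lists (rows); filled points were called, the short bar is the median of a list and the dashed line that of all rows tested (-0.08). All 6 smooth muscle genes are filled and below 0, and 6 of 18 endothelial identity genes are.

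Genes most like the endothelial ones were sought by the correlation of log2(FPKM + 1), over the 6 mice, with the mean of the 7 endothelial genes (Pecam1, Cdh5, Kdr, Flt1, Tek, Tie1 and Eng). That mean was 1.502, 1.529 and 1.526 in OEx mice and 1.991, 1.969 and 2.307 in Ctrl mice, a pattern in which OEx mice are alike and Ctrl replicate 3 is highest. Of the 7163 genes averaging 5 FPKM or more, the closest were Rplp1 (Pearson r 0.9998), Dmpk (0.999), Cox6c (0.999), Cnn1 (0.998) and Sh3bgr (0.998). Rplp1 encodes a ribosomal protein, Cox6c a subunit of cytochrome c oxidase, and Dmpk and Cnn1 are muscle genes. All points share the 6 libraries and the difference between 2 groups, so these correlations are a description of a shared profile over mice.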

How the data were processed

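Total RNA of the AP from 3 OEx and 3 Ctrl mice was sequenced, and the authors deposited FPKM values by gene symbol, 1 table per mouse. Per the submitters' processing notes, CASAVA, HISAT2 2.0.5, StringTie 1.3.3b and featureCounts 1.5.0-p3 were used; their roles, the genome build and the strand setting are not given in the sources used here. Reads were recovered from the FPKM values with the exon lengths of the GENCODE annotation of GRCm38 (53636 of 55076 rows matched by symbol; 14762182 to 18650962 reads per mouse). Whole reads were called with a tolerance of 0.05. The floor of 3 reads was set here and not measured, and corresponds to 0.161 to 0.203 CPM. Floors and intervals cover counting error only.

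The groups were compared by limma 3.58.1 (R 4.3.3, eBayes with trend, group as the only term) on log2(FPKM + 1) for rows averaging 1 FPKM or more, with FDR under 0.05 and a fold change over 2, the criteria of the paper. The fit ran over the whole table. Because 3 of the 10 genes failed the filter, limma-voom on recovered reads with at least 10 reads on average and median-of-ratios size factors was added after the data were seen. Rows can pass a filter through 1 group alone, as Angpt1 did in recovered reads. On the FPKM scale Kdr did so through Ctrl mice (mean 1.33 FPKM, against 0.884 FPKM in OEx mice). Tek did so through Ctrl replicate 3 alone (1.98 FPKM). Among called genes named here, Emcn, Ramp2, Smad9, Adm, Hbb-bt and Hba-a2 passed only through Ctrl mice, and Nrarp and Fgf2 only through OEx mice. Fits without single mice kept the filter set on all mice. Exact permutation tests ran over 20 assignments and were two-sided. On simulated libraries with 200 genes changed 4-fold, limma on log2(FPKM + 1) called 92.5% of them and 7 unchanged genes of 11821 tested, and limma-voom 95.5% and 1 of 12011. The simulation gave all genes the same dispersion between mice. It held no outlying mouse and no difference in the most abundant genes between groups, so these figures need not hold for these mice. The labels do not say whether mice were littermates, so p-values measure the spread between these samples. Python 3.11.15 was used with scipy 1.17.1, pandas 2.3.3, matplotlib 3.10.9 and numpy 2.4.6.

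The genes and the lists were chosen with earlier results of these data known. Named genes are the 10 genes, Notch1, the up to 4 called genes of a list with the largest changes, for lists with no call the 2 highest, and the 5 genes most like the endothelial ones; Esam, Fpgs, Mcph1 and Gm17473 were added after their values were seen, and the epithelial genes are named as a list. Alternatives were other scalings, filters, pseudocounts and thresholds, a replicate block, limma-voom and each mouse left out.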

Additional observations from a re-analysis of the deposited data

How the results depend on the processing

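Of the 7 genes tested on the FPKM scale, 3 were called lower with a pseudocount of 0.1 FPKM (19.2% of all rows). With limma-voom on the recovered reads of the same rows 3 were called lower (16.2%), and with the FDR alone 4 (36.5%). Without single mice 0 to 2 were called lower (1987 to 2043 of 12833 rows), against 0 in the reported fit (15.7%). The number of the 7 called higher was 0 in each of these. Of all rows, 12.9% were called higher in the reported fit and 1614 to 1726 of 12833 without single mice. Raising the filter to an average of 5 FPKM left 3 genes of the endothelial identity list, and 2 of them were called lower. That filter kept 7165 rows, of which 1564 were called lower. At the filter of 1 FPKM, the reported fit called 6 of 18 genes of this list lower (15.7% of all rows). Of these 18, 3 were called lower with library totals (4.59%) and 11 with the FDR alone (36.5%). With library totals, and with those totals lacking the top 20 genes, 1 of the 18 was called higher. The same count was found with upper-quartile scaling and with the FDR alone. Of the 6 genes tested of the VEGF and angiopoietin list, 1 was called higher with the FDR alone (30.7% of all rows). Without single mice 0 to 1 were called higher (1614 to 1726 of 12833 rows), and with library totals 0 were called lower (4.59%). Directions turned with library totals for Kdr (0.10), Tek (0.26), Vegfa (0.70) and Eng (0.25), and in recovered reads for Flt1 (0.093). Totals that left out the top 20 genes put Tek at 0.054 and Vegfa at 0.28, and upper-quartile scaling at 0.020 and 0.23. When single mice were left out, Tek ranged from -0.29 to 0.15, turning without Ctrl replicate 3, and Vegfa from -0.27 to 0.087, turning in 4 of 6 fits. Vegfa also turned with limma-voom (0.079). The cause was not tested. When the replicate number entered the fit as a block, 0 of the 7 genes tested on the FPKM scale were called in either direction. That fit called 1611 of 12833 rows higher and 1986 lower. The blocked fit of all 10 on recovered reads called Angpt1 higher and Pecam1, Cdh5, Tie1 and Angpt2 lower, as did the fit without a block. With the block, 3179 of 15596 rows were called higher and 2571 lower. Deviations of same-numbered mice from their group means correlated at -0.19, -0.19 and -0.31. The labels do not say whether the replicate numbers pair the mice, and correlations from 3 mice per group cannot decide it. Depth limits Angpt1 in Ctrl mice, with 3 to 7 reads, and Angpt2 in OEx mice, with 17 to 23 reads.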
